A study of Mus musculus with 6 samples.

Results

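Specific and gelatinase granules are the later of the granule types that a neutrophil packs while it matures, and 8 genes that encode their proteins were followed here: Ltf, Ngp, Camp, Lcn2, Cd177, Olfm4, Mmp8 and Mmp9. They were taken by symbol from the 23420 genes of the count files, all 8 were found, and all 8 were among the 14388 genes that passed the filter on low counts. RNA came from dendritic cells of the spleen, which take up antigen and show it to T cells, and was sequenced as 3 TBK1-DKO and 3 wild type (WT) libraries, all from C57BL/6 mice. The labels give the age of all mice as 10 weeks in one field and 8 weeks in another, do not spell out DKO, and do not name the alleles, any Cre driver, how the cells were purified or whether every library had an animal of its own. P-values therefore measure the spread between these libraries, which may be technical.

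Neutrophils form their granules in order. Promyelocytes make primary granules, with myeloperoxidase and serine proteases, myelocytes make specific granules, with lactoferrin and cathelicidin, and metamyelocytes and band cells make gelatinase granules. A granule protein is packed where its gene is transcribed at the right stage, and the transcription factor C/EBP epsilon is required for the specific granule genes, so high transcripts of these genes are typical of maturing precursors, while circulating neutrophils have switched most of them off.

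The promoter windows of the members are shown because the 8 genes moved in 1 direction and C/EBP factors and PU.1 are the textbook regulators of granule genes. RefSeq (GRCm38.p6) gave a window, 250 bases before to 50 after the start site, for 7 of the 8 genes; Mmp9 had none. Both strands were searched for TTGCNNAA (C/EBP), GAGGAA (PU.1) and GGGCGG (Sp1), which share no overlapping match in these windows. The 5 windows below are those with a C/EBP match and that of Camp, the cathelicidin gene, which has no match to any of the 3. They lie at chr9:111019042-111019341 (plus strand) for Ltf, chr9:110419558-110419857 (plus) for Ngp, chr2:32387690-32387989 (minus) for Lcn2, chr9:7558179-7558478 (plus) for Mmp8 and chr9:109849407-109849706 (minus) for Camp, and capitals mark the matches.
Ltf: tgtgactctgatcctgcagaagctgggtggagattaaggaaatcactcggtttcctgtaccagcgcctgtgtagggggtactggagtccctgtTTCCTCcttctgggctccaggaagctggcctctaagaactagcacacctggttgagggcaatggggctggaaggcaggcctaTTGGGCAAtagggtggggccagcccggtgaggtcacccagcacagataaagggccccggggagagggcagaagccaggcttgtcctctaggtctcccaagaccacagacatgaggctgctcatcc
Ngp: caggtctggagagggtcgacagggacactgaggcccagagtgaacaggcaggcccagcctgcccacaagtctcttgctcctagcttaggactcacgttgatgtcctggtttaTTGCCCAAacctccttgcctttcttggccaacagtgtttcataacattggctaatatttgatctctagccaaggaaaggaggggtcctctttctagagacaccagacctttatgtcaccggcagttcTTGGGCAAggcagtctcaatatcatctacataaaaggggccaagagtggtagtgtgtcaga
Lcn2: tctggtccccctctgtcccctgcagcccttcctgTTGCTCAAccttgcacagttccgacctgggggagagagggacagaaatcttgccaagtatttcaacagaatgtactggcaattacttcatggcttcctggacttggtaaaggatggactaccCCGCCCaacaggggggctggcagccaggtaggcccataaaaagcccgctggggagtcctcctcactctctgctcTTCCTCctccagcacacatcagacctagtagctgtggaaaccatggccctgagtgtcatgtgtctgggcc
Mmp8: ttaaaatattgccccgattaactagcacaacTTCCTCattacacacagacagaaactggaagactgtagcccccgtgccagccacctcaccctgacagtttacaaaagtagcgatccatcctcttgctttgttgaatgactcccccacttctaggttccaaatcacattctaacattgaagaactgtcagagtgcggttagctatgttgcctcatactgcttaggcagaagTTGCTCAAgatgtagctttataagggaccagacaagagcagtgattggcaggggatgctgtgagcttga
Camp: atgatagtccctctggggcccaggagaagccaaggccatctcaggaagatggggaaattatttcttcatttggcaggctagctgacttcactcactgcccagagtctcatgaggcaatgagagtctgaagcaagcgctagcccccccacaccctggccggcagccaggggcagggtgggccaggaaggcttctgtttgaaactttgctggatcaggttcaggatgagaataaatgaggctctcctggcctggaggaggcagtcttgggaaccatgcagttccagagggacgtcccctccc

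Counted with the RefSeq start site of each window as 1 and the base before it as -1, the C/EBP match of Ltf began at -75, those of Ngp at -138 and -11, that of Lcn2 at -216 and that of Mmp8 at -19. The gene spans printed below come from GENCODE and do not all begin at these start sites. A match placed before the start site can thus lie inside a printed span. The letters TTGCNNAA were in 4 of the 7 windows, against 10.8% of the 32851 promoter windows of the RefSeq table. PU.1 letters were in 5 of the 7, those of Ltf (from -157), Lcn2 (from -20), Mmp8 (from -219), Cd177 (from -192) and Olfm4 (from -79), against 28.3% of all windows. The Sp1 letters were in 1, that of Lcn2 (from -94), against 35.7%. A match is a run of letters and not a binding site, and none of the libraries measured binding.

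Depth and the labels were checked first. Reads in genes numbered 45018389 to 47349648 in the TBK1-DKO libraries and 31077585 to 36145508 in the WT libraries, without overlap. Levels are given as counts per 1000000 reads (CPM) after library scaling with TMM factors, and changes as log2 of TBK1-DKO over WT. Tbk1 itself was not called, at 82.3 ± 2.69 against 85.0 ± 5.08 CPM (SD, n = 3; log2 fold change -0.048, adjusted p = 0.629, edgeR), which does not check an allele that leaves most of the gene's reads, so rose and fell describe the libraries as labelled. Libraries TBK1-DKO 2 and WT 1 stood apart from the other two of their groups: the chi-square per degree of freedom over genes was 36.1 and 36.2 for the pairs with TBK1-DKO 2 and 12.6 and 14.1 for those with WT 1, against 2.40 and 2.58 for the remaining pairs. Dendritic cell markers were present in every library: Cd74, the MHC class II invariant chain, stood at 5979 to 7046 CPM, and all 16 listed markers passed the filter.

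All 8 granule genes rose in the TBK1-DKO libraries, and for none of them did the groups overlap. They were chosen with earlier results of these data known, so their shared direction is no independent support. Together they took 0.384% to 0.424% of the gene reads of the TBK1-DKO libraries and 0.156% to 0.173% of the WT libraries. Log2 fold changes ran from 0.65 for Mmp9 to 1.55 for Cd177 with a median of 1.28, beside a median of 0.0015 over all genes tested. By the quasi-likelihood test of edgeR, with p-values adjusted over all genes, 23.6% of the genes tested were called, 13.7% higher and 9.9% lower, while 21.5% were higher and 19.5% lower without overlap of the groups. DESeq2 and limma-voom also called all 8 higher, as did the fit that left out both TBK1-DKO 2 and WT 1. That last fit kept only the closest pair of libraries in each group. It called 6897 genes, against 3402 with all libraries, so its calls, here and below, add little. With trends in transcript length and GC content taken out, a setting chosen once the data had been seen, the changes ran from 0.58 for Mmp9 to 1.48 for Cd177. In RNA of many cells, more cells of a type and more RNA per cell cannot be told apart.

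**Figure D1:**
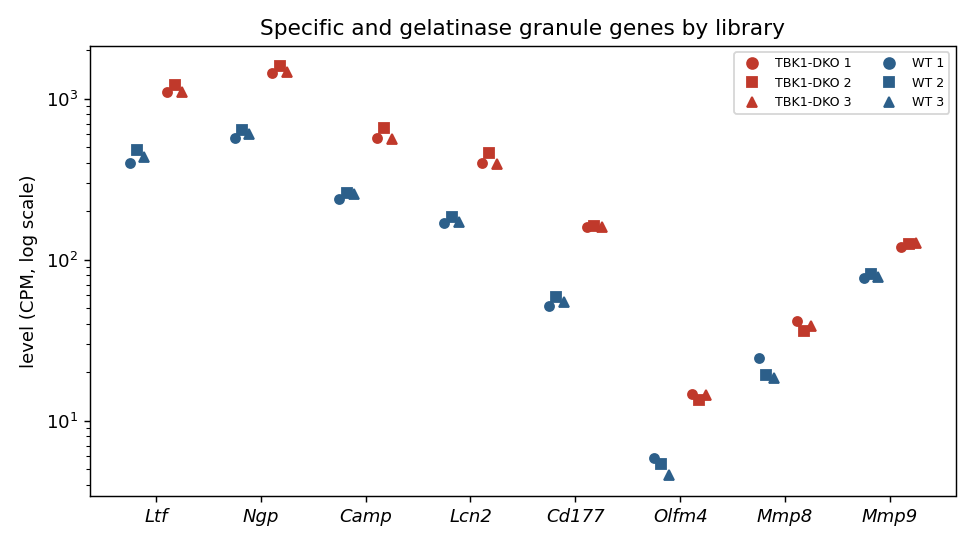
Level of each of the 8 granule genes (CPM, log scale) in each library, WT in blue and TBK1-DKO in red, with the marker shape giving the replicate number. For every gene the 3 TBK1-DKO points lie above the 3 WT points, with Ngp at the top (1436 to 1590 against 574 to 644 CPM) and Olfm4 at the bottom (13.4 to 14.7 against 4.58 to 5.85 CPM).

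The iron-binding and siderophore-binding proteins come first. Ltf (ENSMUSG00000032496.7, chromosome 9, 111019271 to 111042767, plus strand, 17 exons in its longest transcript) encodes lactoferrin, which withholds iron from microbes and defines the specific granule. Its level was 1108, 1214 and 1108 CPM in TBK1-DKO libraries 1 to 3 and 401, 479 and 435 CPM in WT libraries 1 to 3. The lowest TBK1-DKO library was thus above the highest WT library by more than the range within either group, and the change was 1.38 (SE 0.080, 95% interval 1.21 to 1.56; adjusted p = 2.57e-06, edgeR). Lcn2 (ENSMUSG00000026822.14, chromosome 2, 32384633 to 32388252, minus strand, 5 exons in its longest transcript) encodes lipocalin 2, which binds bacterial siderophores. Its levels were 396, 460 and 396 CPM against 169, 185 and 173 CPM. TBK1-DKO 2 was the highest library for both genes, as WT 2 was among the WT libraries, and Lcn2 changed by 1.25 (SE 0.074, 95% interval 1.09 to 1.42; adjusted p = 3.29e-06, edgeR).

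The antimicrobial members Camp and Ngp lie on chromosome 9, as Ltf does, and belong to the cathelicidin family by their cystatin-like domains. Camp (ENSMUSG00000038357.10, 109847379 to 109849617, minus strand, 4 exons in its longest transcript) encodes the precursor of the antimicrobial peptide CRAMP, cut free after secretion. In library order its level was 568, 661 and 560 CPM for TBK1-DKO and 239, 260 and 257 CPM for WT. TBK1-DKO 2 was the highest of the 6, the groups were far apart, and the change was 1.25 (SE 0.077, 95% interval 1.07 to 1.42; adjusted p = 4.19e-06, edgeR). Ngp (ENSMUSG00000032484.8, 110419747 to 110423012, plus strand, 4 exons in its longest transcript) encodes neutrophilic granule protein, found in maturing mouse neutrophils. It was the most abundant of the 8 at 1436, 1590 and 1463 CPM against 574, 644 and 602 CPM. Every TBK1-DKO library was above every WT library, and Ngp changed by 1.30 (SE 0.072, 95% interval 1.14 to 1.46; adjusted p = 2.24e-06, edgeR).

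The surface and matrix glycoproteins rose the most on the log2 scale, although their intervals overlapped that of Ltf. Cd177 (ENSMUSG00000052212.6, chromosome 7, 24743983 to 24760311, minus strand, 17 exons in its longest transcript) encodes a membrane-anchored glycoprotein of specific granules and the neutrophil surface that binds the endothelial protein PECAM1. TBK1-DKO libraries 1 to 3 held 159, 162 and 159 CPM and WT libraries 1 to 3 held 51.3, 58.3 and 54.7 CPM. With a coefficient of variation of 1.07% it was the steadiest of the 8 genes across the TBK1-DKO libraries. The change was 1.55 (SE 0.062, 95% interval 1.41 to 1.68; adjusted p = 3.15e-07, edgeR), 2.92-fold. Olfm4 (ENSMUSG00000022026.7, chromosome 14, 79984081 to 80023139, plus strand, 5 exons in its longest transcript) encodes olfactomedin 4, a specific granule glycoprotein that only some neutrophils carry. It was the least abundant, with 608 to 694 reads per TBK1-DKO library and 154 to 195 per WT library, or 14.7, 13.4 and 14.4 CPM against 5.85, 5.41 and 4.58 CPM. The groups did not overlap, and the change was 1.42 (SE 0.10, 95% interval 1.20 to 1.65; adjusted p = 9.38e-06, edgeR). The annotated gene Gm6999 overlaps an Olfm4 exon on the same strand, so reads there may be missing from its counts.

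The matrix metalloproteinases rose the least. Mmp8 (ENSMUSG00000005800.3, chromosome 9, 7558456 to 7568485, plus strand, 10 exons in its longest transcript) encodes neutrophil collagenase, a specific granule enzyme. TBK1-DKO libraries 1 to 3 held 41.5, 36.1 and 38.7 CPM of it, and WT libraries 1 to 3 held 24.5, 19.1 and 18.4 CPM. WT 1 was above the other WT libraries and TBK1-DKO 2 was the lowest of its group, the reverse of their places for Ltf, and the groups still did not overlap. The change was 0.91 (SE 0.11, 95% interval 0.67 to 1.15; adjusted p = 0.000178, edgeR). Mmp9 (ENSMUSG00000017737.2, chromosome 2, 164940780 to 164955850, plus strand, 13 exons in its longest transcript) encodes gelatinase B, the enzyme after which gelatinase granules are named. At 119, 124 and 127 CPM against 77.3, 81.0 and 77.7 CPM, each group held within a narrow range. It rose by 0.65 (SE 0.055, 95% interval 0.53 to 0.77; adjusted p = 2.29e-05, edgeR), or 1.57-fold, the least of the 8.

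**Figure D2:**
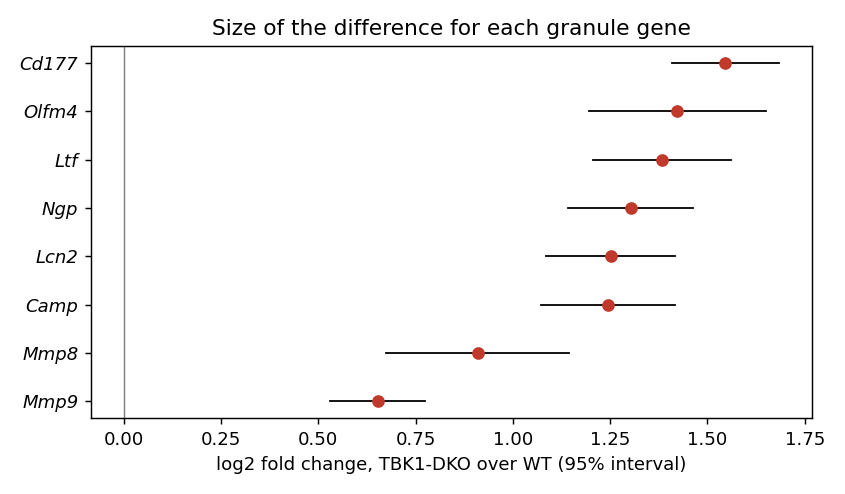
Log2 fold change of each granule gene, TBK1-DKO over WT, as a point with its 95% interval as a line. All 8 intervals lie above 0, from Mmp9 (0.53 to 0.77) to Cd177 (1.41 to 1.68).

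Whether the genes moved by unlike amounts was tested by the ratio of each gene's reads to Ltf reads in the same library, which needs no scaling. Mmp9 reads came to 10.8%, 10.3% and 11.5% of Ltf reads in TBK1-DKO 1, 2 and 3 and to 19.3%, 16.9% and 17.9% in WT 1, 2 and 3. The groups did not overlap, and the log2 ratio was lower by -0.73 in TBK1-DKO (exact two-sided permutation test, p = 0.1, adjusted p = 0.14 over 7 ratios). No p under 0.1 is possible with 3 against 3 libraries, so none of these differences could pass 0.05. Mmp8 reads came to 3.75%, 2.97% and 3.49% of Ltf reads against 6.11%, 3.98% and 4.24%, a difference of -0.47 with the same p-values, which became -0.28 without WT 1 and -0.18 without both WT 1 and TBK1-DKO 2. Ngp (-0.083) and Lcn2 (-0.14) were also lower relative to Ltf without overlap, and Cd177 was higher (0.16), each with exact p = 0.1 and adjusted p = 0.14. Camp (-0.14, exact p = 0.2, adjusted p = 0.233) and Olfm4 (0.042, exact p = 0.9, adjusted p = 0.9) overlapped between the groups.

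**Figure D3:**
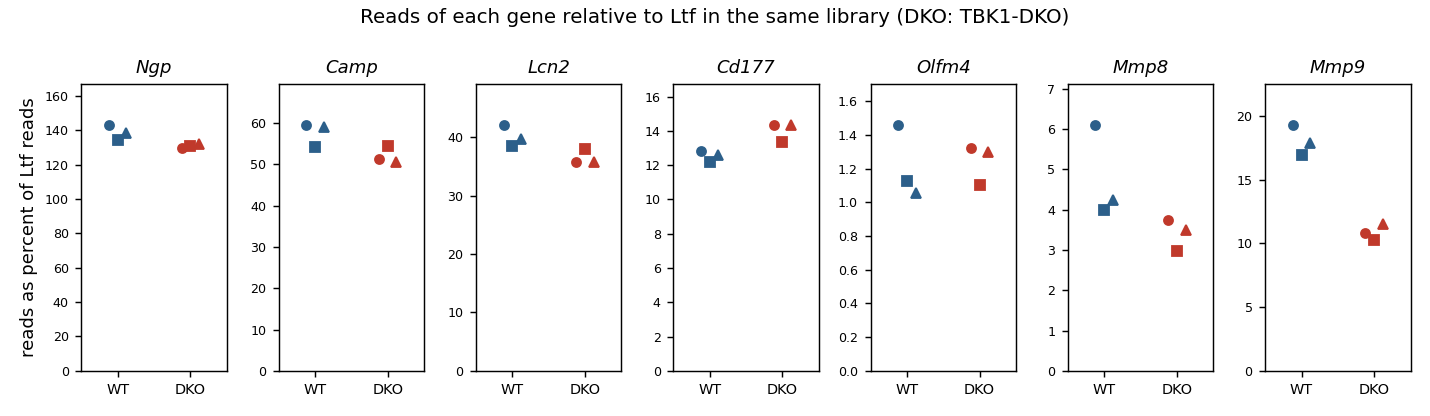
Reads of each gene as a percentage of Ltf reads in the same library, WT (blue) beside TBK1-DKO (DKO, red), each panel from 0 on its own axis, with marker shape giving the replicate number. Mmp9 shows the widest gap (16.9% to 19.3% in WT, 10.3% to 11.5% in TBK1-DKO), while the Olfm4 and Camp panels overlap.

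Levels of different genes were compared per kilobase of annotated exon. In the WT libraries the order was Ngp (496 ± 29.0 CPM per kilobase, SD, n = 3), Camp (332 ± 15.0), Ltf (127 ± 11.5), Lcn2 (66.9 ± 3.18), Mmp9 (22.2 ± 0.57), Cd177 (19.3 ± 1.23), Mmp8 (8.52 ± 1.36) and Olfm4 (1.78 ± 0.22). In the TBK1-DKO libraries it was Ngp (1224 ± 67.5), Camp (787 ± 74.3), Ltf (331 ± 17.7), Lcn2 (159 ± 14.1), Cd177 (56.4 ± 0.61), Mmp9 (35.0 ± 1.13), Mmp8 (16.0 ± 1.12) and Olfm4 (4.78 ± 0.24). Neighbours in either order did not overlap between libraries. Cd177 and Mmp9 changed places: Mmp9 was the higher of them in each WT library (21.8 to 22.9 against 18.1 to 20.5) and the lower in each TBK1-DKO library (33.7 to 36.0 against 56.0 to 57.1). Per kilobase of the longest transcript instead, both orders were the same, although the values of Ltf, Lcn2, Cd177, Olfm4 and Mmp9 were larger.

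The profiles of the 8 genes lay at different distances from their mean. Each profile was centred on its mean log2 CPM and compared with the mean profile of the 8, and the root mean square difference over the 6 libraries was 0.060 for Lcn2, 0.063 for Ngp, 0.072 for Camp, 0.11 for Ltf, 0.15 for Olfm4, 0.17 for Cd177, 0.21 for Mmp8 and 0.28 for Mmp9. Of the other 10704 genes with a mean of at least 5 CPM, the 5 nearest to the mean profile, all nearer than any of the 8 members, were Gm6682, a predicted gene (0.031), H2-M2, of the non-classical MHC class I family (0.047), Gdpd3, which encodes a phosphodiesterase of glycerol phospholipids (0.047), Pvrl1, which encodes the adhesion protein nectin-1 (0.050), and Ckap4, which encodes a protein of the endoplasmic reticulum (0.053). With a mean of at least 1 CPM these were again the nearest 5 of 12661. All 5 rose, by 1.12 (Ckap4) to 1.21 (Gm6682), and the 6 points of a profile come from 2 groups, so likeness here is largely likeness in the size of that change.

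Genes of other granules and stages were read from the same fit, as lists. Of 12 tested primary granule genes, the products of promyelocytes, 9 were called higher and 3 were not called (median 1.41). Mpo, the myeloperoxidase gene, rose by 1.95 (SE 0.067), Ctsg, cathepsin G, by 1.91 (SE 0.099), Elane, neutrophil elastase, by 1.82 (SE 0.095) and Fcnb, ficolin B, by 1.51 (SE 0.077). Without TBK1-DKO 2, 1 gene of this list was called lower, and without both TBK1-DKO 2 and WT 1, 9 were higher and 3 lower. The latter fit also called far more genes in all. Calls over all genes moved with a single library left out as well, such as 2493 without TBK1-DKO 1 against 3402 with all libraries. Counts of list genes with a library left out, here and below, can therefore not be read as particular to a list. The summed level of the 8 specific and gelatinase granule genes was 19.7, 20.9 and 20.1 times that of Mpo in TBK1-DKO 1, 2 and 3 and 31.4, 31.4 and 33.4 times in WT 1, 2 and 3. Against the summed level of the whole primary list the order was the other way, at 2.93, 3.09 and 2.96 times in the TBK1-DKO libraries and 1.48, 1.63 and 1.53 times in the WT libraries. Both ratios describe chosen genes and have no test.

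Of 18 tested genes of other specific and gelatinase granule cargo, 11 were called higher, 1 lower and 6 were not called (median 0.30). Ltb4r1, the leukotriene B4 receptor, rose by 1.28 (SE 0.11), Chi3l3, the chitinase-like protein Ym1 now named Chil3, by 0.99 (SE 0.081), Chi3l1, now Chil1, by 0.73 (SE 0.066) and Anxa3, an annexin of granule membranes, by 0.53 (SE 0.057). Reads of Chi3l3 may be shared with near-identical relatives. A further 3 were named after their values were seen because monocytes, macrophages and dendritic cells also express them. Itgam, the integrin CD11b, rose by 0.37 (SE 0.075), Lyz2, lysozyme, stood at 1782 against 1768 CPM and was not called, and Slc11a1, a metal ion transporter, fell by 0.40 (SE 0.059). Without TBK1-DKO 2, 3 of these genes were called lower, without WT 1, 2 were, and with both left out 12 were higher and 5 lower. Leaving out both also gave far more calls among all genes. Ptx3 had 0 reads in all 6 libraries.

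Mature neutrophil genes moved less evenly. Of 18 tested, 11 were called higher, 2 lower and 5 were not called (median 0.35). Without WT 3, 7 were higher, and 4 were lower without TBK1-DKO 2, with or without WT 1. Calls over all genes also moved with libraries left out, so these counts cannot be read as particular to this list. The calprotectin genes S100a8 and S100a9, which are transcribed from the myelocyte stage on, rose by 1.16 (SE 0.14) and 1.15 (SE 0.12), Retnlg, a resistin-like gene, by 0.73 (SE 0.070) and 1100001G20Rik, now Wfdc21, by 1.23 (SE 0.096). S100a8 levels were 870, 1044 and 846 CPM in TBK1-DKO libraries 1 to 3 and 515, 374 and 348 CPM in WT libraries 1 to 3, with WT 1 above the other WT libraries, whereas WT 1 was the lowest WT library for Ltf, Ngp, Camp and Lcn2. The 8 receptor genes of this list were grouped after their values were seen and moved unevenly. Trem3 rose by 0.53 (SE 0.078), Fpr2 by 0.49 (SE 0.077), Clec4e by 0.47 (SE 0.11) and Il1r2, a decoy receptor of interleukin 1, by 0.40 (SE 0.10), while Trem1 fell by 0.37 (SE 0.086). The call of Clec4e was lost without WT 2 or WT 3 (adjusted p of 0.0652 and 0.0564, edgeR) and that of Il1r2 without TBK1-DKO 3 or WT 3 (0.0552 and 0.0636). Clec4d (0.17) was not called, and neither was Cxcr2, a chemokine receptor, at 50.8 against 45.9 CPM (0.15, adjusted p = 0.0986, edgeR). Csf3r, the G-CSF receptor, was called with a change of 0.17 (adjusted p = 0.0471, edgeR), but 9 of 17 alternatives lost that call, among them leaving out TBK1-DKO 1 or 3 or WT 2 or 3 (adjusted p from 0.139 to 0.202, edgeR). Il1b fell by 0.35 (SE 0.057). Summed over the 8 members, the level was 1.19, 1.15 and 1.22 times the summed level of the mature list in TBK1-DKO 1, 2 and 3 and 0.71, 0.94 and 0.92 times in WT 1, 2 and 3. Against S100a8 alone the groups overlapped, at 4.42, 4.08 and 4.57 times and 2.99, 4.63 and 4.66 times.

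**Figure D4:**
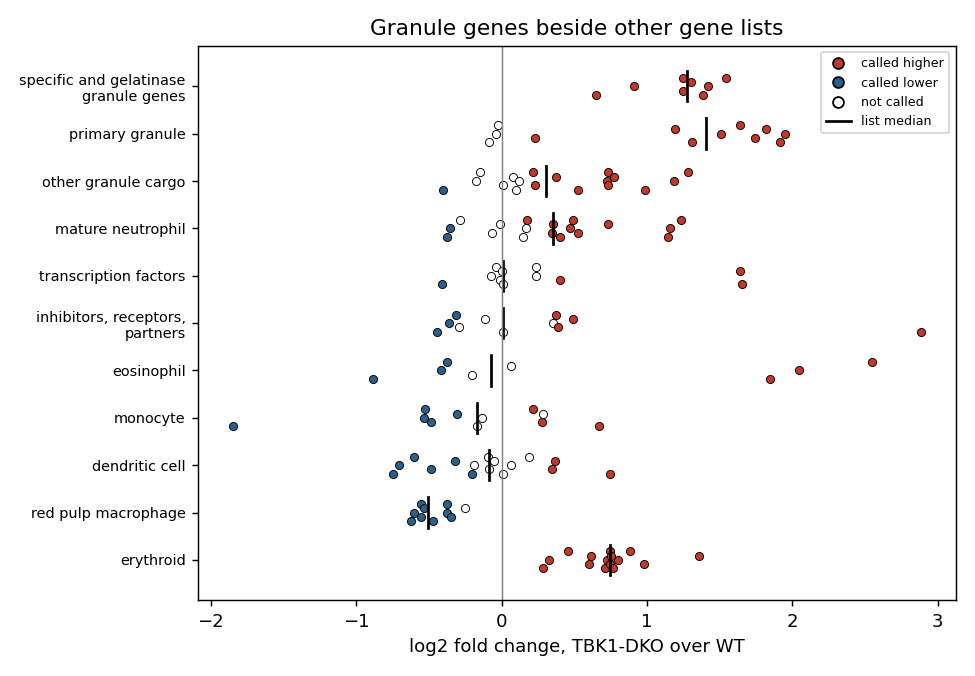
Log2 fold change, TBK1-DKO over WT, of each tested gene of 11 lists, filled red where called higher, filled blue where called lower and white where not called, with the list median as a vertical bar. The 8 specific and gelatinase granule genes (median 1.28) and most primary granule genes (median 1.41) lie to the right, and other granule cargo (0.30) and mature neutrophil genes (0.35) spread toward 0.

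Of 11 transcription factors of the granulocyte lineage, 3 were called higher, 1 lower and 7 were not called (median 0.011). Cebpe, the gene of C/EBP epsilon, rose from 4.83, 5.22 and 6.07 CPM in WT 1, 2 and 3 to 15.6, 18.9 and 15.8 CPM in TBK1-DKO 1, 2 and 3. The groups did not overlap, and the change was 1.64 (SE 0.11; adjusted p = 7.54e-06, edgeR), or 1.47 without TBK1-DKO 2 and WT 1. Klf5, a Krüppel-like factor, rose by 1.66 (SE 0.22) from a low level, 0.59 to 1.87 CPM. Cebpd rose by 0.40 (SE 0.12; adjusted p = 0.0341, edgeR), but leaving out TBK1-DKO 1, TBK1-DKO 3 or WT 2 lost the call (adjusted p of 0.0548, 0.0884 and 0.0774, edgeR). Gfi1, which represses monocyte genes in granulocyte precursors, stood at 14.6 CPM in both groups (log2 fold change 0.0009, SE 0.083). Cebpa (-0.041), which acts at the entry to the lineage, Cebpb (-0.071), Runx1 (0.011), Cux1 (-0.0087), a repressor of late granule genes, and Per3 (0.24) were not called. Sfpi1, the gene of PU.1 now named Spi1, was at 222 against 188 CPM and was not called either (0.24, adjusted p = 0.0738, edgeR), although the replicate block, leaving out WT 3, leaving out both TBK1-DKO 2 and WT 1, and the length and GC offsets each gave a call, and Lef1, which T cells also express, fell by 0.41 (SE 0.075). Without TBK1-DKO 2 and WT 1, 8 of the 11 were called, 5 of them higher. That fit called 6897 of all genes, against 3402 with all libraries, so the added calls are not particular to this list.

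The proteins that bind, inhibit or receive the granule proteins did not move in 1 direction. Of 11 tested, 4 were called higher, 3 lower and 4 were not called (median 0.0079), and without TBK1-DKO 2 and WT 1, 5 were lower. Itln1, which encodes intelectin 1, described as a lactoferrin receptor, rose by 2.88 (SE 0.15) from 1.39 ± 0.27 to 10.4 ± 1.15 CPM. Fpr2, a formyl peptide receptor that responds to cathelicidin, rose by 0.49 (SE 0.077). Timp2, an inhibitor of metalloproteinases, fell by 0.36 (SE 0.058), and Pecam1, the ligand of CD177, fell by 0.31 (SE 0.054). Timp1, the main inhibitor of MMP9, had too few reads to be tested, at 0.14 to 0.35 CPM across the 6 libraries, and so did Lrp2, a receptor of lipocalin 2, and Csf3, the gene of G-CSF.

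Markers of other cell types moved in the same libraries, and their part in the granule gene result was not tested. The 8 granule genes encode proteins of neutrophil granules, and their summed level was 3843 to 4262 CPM in TBK1-DKO and 1541 to 1732 CPM in WT. The 16 dendritic cell markers summed to 12844 to 14647 and 13550 to 14983 CPM. Most of the marker sum came from Cd74, H2-Aa and H2-Ab1, which were not called. Their means were 6374, 3128 and 2222 CPM in TBK1-DKO and 6618, 3333 and 2357 CPM in WT. The sum therefore says little about the other markers. Of those 16 markers, 3 were called higher, 6 lower and 7 were not called (median -0.088), and 1 was higher without WT 3, while 10 were lower without both TBK1-DKO 2 and WT 1. The fit without both called far more of all genes too. All 15 erythroid markers were called higher (median 0.74), with summed levels of 4972 to 5232 CPM against 2917 to 3304 CPM. Of 10 red pulp macrophage markers, 9 were called lower and 1 was not called (median -0.50), with summed levels of 5108 to 5534 CPM against 7218 to 7870 CPM. No marker of these 3 lists was at 0 in all libraries.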

How the data were processed

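The authors deposited whole-number read counts per gene symbol, 1 file per library, without scaling or pooling. The tools in the submitters' processing notes are HTSeq, TopHat, TopHat2 and DESeq2, and the build is mm10. Their versions, the strand setting and the annotation were not given in the labels, so reads of overlapping or antisense genes may be mixed or missing. Summary rows that name no gene (8.20% to 10.7% of records) entered neither the library sizes nor the tests.

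Counts were compared with edgeR 4.0.16 in R 4.3.3: filterByExpr with a minimum count of 10, TMM factors, robust dispersions, the quasi-likelihood F test and Benjamini-Hochberg adjustment over 14388 genes, with adjusted p under 0.05 called. Standard errors were derived from the F statistic. DESeq2 1.42.0, limma-voom (limma 3.58.1), other scaling, filters and thresholds, the replicate number as a block and left-out libraries were the alternatives. The scripts were tested on simulated data. Ratios used exact permutation tests. Positions and lengths came from GENCODE M21 (GRCm38), matched by symbol or synonym for all but 366 symbols, and promoters from RefSeq. Figures used matplotlib 3.10.9.

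The members and lists were chosen with earlier results of these data known. Named genes were Tbk1, the 8 members, all listed transcription factors, up to 4 genes of smallest p per other list and the 5 nearest profiles; the text prints part of them and says where a gene was added. Ly6g and Trac matched no symbol and were not analysed here.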

Additional observations from a re-analysis of the deposited data

How the results depend on the processing

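Each of the 8 granule genes kept its direction and its call under all 17 alternatives: RLE and upper-quartile factors, DESeq2, limma-voom, no filter, a minimum count of 50, the replicate block, dispersions without the robust option, an adjusted p under 0.01, each library left out, TBK1-DKO 2 and WT 1 both left out, and length and GC offsets. These alternatives reuse the same libraries, and the 8 genes were chosen with earlier results of these data known, so the kept calls are no independent support. Counts over all genes moved more. An adjusted p under 0.01 gave 1996 calls (1270 higher, 726 lower) and 2 of the B cell markers. Leaving out TBK1-DKO 2 and WT 1 gave 6897 calls (3500 higher, 3397 lower), 8 of the transcription factors, 14 of the dendritic cell markers and 8 of the B cell markers, and turned the change of Lyz2, not called before, to a called -0.060. The offsets for length and GC, which were chosen with the data in view, gave 2565 genes lower and 8 of the B cell markers. With each library left out in turn, 4 to 7 B cell markers were called (7 without TBK1-DKO 2), and the Olfm4 to Ltf difference ran from -0.054 to 0.18. The cause of these moves was not tested. The replicate block gave 4086 calls. Same-numbered libraries deviated together with correlations of 0.268, 0.222 and -0.109, and TBK1-DKO 3 went best with WT 1 (0.201), so the numbers were not taken as pairs. With 3 libraries a group the ratio tests cannot pass 0.05, and depth limits Olfm4 most (154 reads in WT 3).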

Other observations

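Eosinophil genes, the other granulocyte list, moved in both directions: of 8 tested, 3 were called higher, 3 lower and 2 were not called (median -0.069). Epx, eosinophil peroxidase, rose by 2.55 (SE 0.14), Prg2, the major basic protein gene, by 1.84 (SE 0.10) and Ear1, an eosinophil ribonuclease, by 2.04 (SE 0.15), while Ccr3, the eotaxin receptor, fell by 0.88 (SE 0.062). These 3 rises exceed that of every specific and gelatinase granule gene, and reads of the Ear genes may be shared among near-identical copies. Prg3, a homologue of Prg2, and Il5ra, a receptor chain for interleukin 5, were the other two called lower and were named after their values were seen.

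Monocyte genes also split, with 3 of 11 called higher, 5 lower and 3 not called (median -0.17); without WT 2, or without WT 3, 1 was higher. The largest change was that of Vcan, which encodes the matrix proteoglycan versican and fell by 1.85 (SE 0.15), from 5.69 ± 0.73 to 1.57 ± 0.22 CPM (SD, n = 3). F13a1, coagulation factor XIII, rose by 0.67 (SE 0.070), Nr4a1, a nuclear receptor of patrolling monocytes, fell by 0.49 (SE 0.054), and Csf1r, the receptor of macrophage colony-stimulating factor, fell by 0.53 (SE 0.064). Of 9 B cell markers, 4 were called lower and 5 were not called (median -0.28; 7 lower without TBK1-DKO 2), and of 11 T cell and NK cell markers, 9 were lower and 2 not called (median -0.41).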
